A study of Arabidopsis thaliana with 6 samples.

Results

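The lipid-transfer proteins of Arabidopsis thaliana and their hybrid proline-rich relatives were followed in callus and leaf. The family list held 60 loci, and 27 of them had a probe set that the platform's gene table assigns to 1 gene. Measured here means having such a probe set. The other 33 loci were not analysed, and they include every listed locus with a RefSeq gene name, such as EARLI1. The array may still hold probes for them, since 8730 probe sets were not listed in that table. Statements on the family thus cover the 27 genes alone. From general knowledge of the family the loci were placed in 4 groups, which were LTP1 and its relatives (3 of 12 loci measured), other small lipid-transfer proteins (8 of 9), hybrid proline-rich proteins (10 of 22) and lipid-transfer proteins with a glycosylphosphatidylinositol (GPI) anchor (6 of 17). The genes were selected on family membership. Where a gene has several probe sets, the one to use is chosen by its mean signal on the 6 arrays, but each measured gene had a single probe set, so no measured value decided a choice. The difference between the tissues is not part of the rule. The family was nevertheless taken up with earlier results of these arrays known, so its counts are given as a description with no test over the family.

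All material was wild-type Col-0. Calli, which are masses of dividing cells, were collected 20 days after leaf blades of 20-day-old seedlings had been placed on callus-inducing medium (CIM), and this medium carries the auxin 2,4-dichlorophenoxyacetic acid, the cytokinin kinetin and glucose. Leaves came from 20-day-old seedlings. Each tissue had 3 Affymetrix arrays from independent experiments. Hormones, sugar, detachment and culture time differed together between the tissues, and the sources differ on the light given to calli (darkness in the methods, 16 h of light in the labels), so a part of light in any result cannot be told apart.

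A lipid-transfer protein is a small secreted protein whose conserved cysteines form disulfide bridges around a cavity that can hold a lipid. Members of the family are known from the epidermis and the cuticle, from suberized and other secondary walls, and from responses to pathogens and stress. In the GPI-anchored members the same domain is held at the outer face of the plasma membrane. In the hybrid proline-rich members a proline-rich stretch, thought to bind the cell wall, precedes the cysteine domain.

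Signals are RMA values on a log2 scale, where a difference of 1 is a 2-fold change. A gene was called when its limma p-value, adjusted over all 13355 measured genes, was under 0.05 and its change was more than 2-fold. Array medians lay between 5.79 and 5.96, and the lowest Pearson correlation across genes was 0.997 among callus arrays, 0.995 among leaf arrays and 0.765 between the tissues. The tissues bore their labels. The summed linear signal of the mesophyll markers (6 of 7 measured) was 252 to 276 in callus and 49400 to 53400 in leaf, that of the guard cell markers (2 of 3 measured) was 37.7 to 44.9 in callus and 448 to 527 in leaf, and that of the markers of callus, root and division (7 of 9 measured) was 4780 to 5460 in callus and 372 to 414 in leaf. Most of the last sum came from GH3.3, an auxin-response gene, and without it the other 6 summed to 769 to 845 in callus and 131 to 143 in leaf. Among these 6, LBD29 was not called (log2 fold change 0.34). Of the 5 epidermis markers chosen, 0 were measured. RMA gives no 0 and no detection call. Fewer cells of a type and less RNA per cell cannot be told apart in such bulk samples.

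The family held both very large rises and very large falls in callus, around a majority that was not called. AT5G01870 rose by 8.75 and AT2G45180 fell by 8.68 on the log2 scale. Of the 27 measured genes 7 were called higher in callus (25.9%, against 16.4% of all genes), 4 were called lower (14.8%, against 13.2%) and 16 were not called. Both directions together came to 40.7%, against 29.6% of all genes. Of the 16 genes not called, 8 lay below the first quartile of gene means in both tissues, where a change may not show. The shares of all genes (16.4% higher, 13.2% lower) also stand beside the group counts below, which rest on few genes and were not tested. A change of more than 16-fold was seen in 5 of the 27 (18.5%, against 3.14% of all genes), of which 2 were higher in callus (against 0.884% of all genes) and 3 lower (against 2.25%). The count of 2 depends on AT2G18370, a gene dim in leaf that lay at this limit (log2 fold change 4.02, against 4). It fell under 16-fold without callus replicate 1 (3.99), without leaf replicate 2 (3.95) and with the TIP41 centring described below (3.43). Leaving out any other array, or centring on either set of spiked controls, kept it above. The callus and leaf arrays did not overlap for 16 of the 27 (59.3%, against 66.0% of all genes), among them all 11 called genes. The median log2 fold change of the 27 was 0.06 against 0.01 over all genes, and the median of its absolute value was 0.40 against 0.41. Centring the arrays on TIP41, a gene often used as a reference, or on the spiked poly-A controls shifted all genes alike, by -0.59 and 0.76, so that the family median became -0.53 and 0.82 and its distance from the median of all genes stayed at 0.05. The SD between replicates, pooled over both tissues, had a median of 0.11 among the 27 and of 0.11 among all genes, with a highest value of 0.22.

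**Figure D1:**
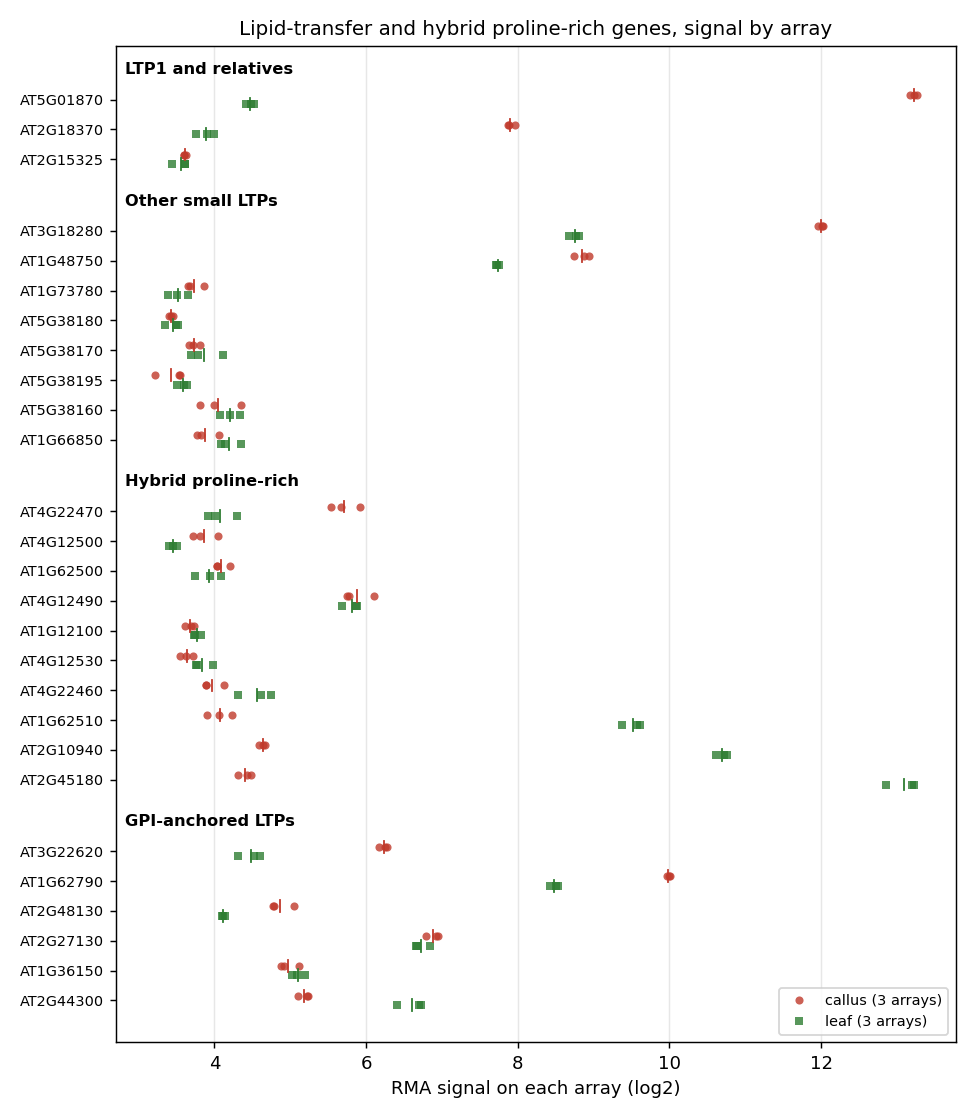
RMA signal (log2, horizontal axis) of the 27 measured genes on each of the 3 callus arrays (red circles) and 3 leaf arrays (green squares), by group, with the mean of each tissue as a vertical line. AT5G01870 is near 13.2 in callus and 4.5 in leaf, AT2G45180 is near 4.4 in callus and 13.1 in leaf, and most of the other genes show both tissues at nearly the same signal.

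Among LTP1 and its relatives, 2 of 3 measured genes rose. The 3 do not include LTP1 itself, LTP2 to LTP7, LTP11 or LTP12, for which the gene table assigned no probe set to 1 gene. AT5G01870, which encodes a lipid-transfer protein, stood at 13.18, 13.27 and 13.22 on the callus arrays and at 4.52, 4.48 and 4.42 on the leaf arrays. The replicates of each tissue lay close together while the tissues were far apart. Its log2 fold change was 8.75 ± 0.065 (SE, limma adjusted p = 8.16e-20), a ratio of 430 that ranked 2 of 13355 among rises. The leaf values lay between the first quartile (4.05) and the median (5.38) of gene means in leaf, so the leaf end of this fold lies at low signal. AT2G18370 stood at 7.962, 7.882 and 7.868 in callus and at 3.908, 3.761 and 3.995 in leaf, a rise of 16.2-fold (log2 fold change 4.02 ± 0.11, SE, adjusted p = 2.57e-14), ranked 116. All 3 leaf values were dim, below the first quartile of gene means in leaf, so that the fold is not exact. AT2G15325 was dim in both tissues, with a mean of 3.61 in callus (SD 0.015, n = 3) and of 3.56 in leaf (SD 0.096), and was not called (log2 fold change 0.06, 95% interval -0.09 to 0.20).

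Of the 8 other small lipid-transfer proteins measured, 2 rose and 6 were not called. AT3G18280 stood at 12.004, 12.023 and 11.959 in callus and at 8.675, 8.808 and 8.762 in leaf. Both tissues lay above the third quartile of gene means (7.69 in callus, 7.62 in leaf), so this difference of 9.50-fold does not rest on a dim value (log2 fold change 3.25 ± 0.054, SE, adjusted p = 9.45e-17, rank 244 among rises). AT1G48750, also bright in both tissues, averaged 8.85 ± 0.096 in callus and 7.73 ± 0.021 in leaf (SD, n = 3). Its rise of 2.17-fold lay close to the 2-fold threshold and was no longer called on the TIP41 scale (0.53 on the log2 scale). AT1G66850 was lower in callus by less than the threshold, with 3.88 ± 0.16 in callus and 4.19 ± 0.14 in leaf (log2 fold change -0.31, adjusted p = 0.0162). AT1G73780 was at 3.73 ± 0.11 in callus and 3.52 ± 0.13 in leaf, with arrays that overlapped (log2 fold change 0.22, adjusted p = 0.0345). The remaining 4, AT5G38160, AT5G38170, AT5G38180 and AT5G38195, had log2 fold changes of -0.16 to -0.02, and their arrays overlapped between the tissues.

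The hybrid proline-rich group held the falls of more than 16-fold. In this group 3 of 10 measured genes fell, 1 rose and 6 were not called. AT2G45180 stood at 4.31, 4.43 and 4.48 in callus and at 13.22, 12.85 and 13.20 in leaf. The ratio of leaf to callus was 411 (log2 fold change -8.68 ± 0.093, SE, adjusted p = 1.21e-18), ranked 3 of 13355 among falls. AT2G10940 stood at 4.67, 4.65 and 4.59 in callus and at 10.76, 10.72 and 10.61 in leaf, a ratio of leaf to callus of 66.6 (log2 fold change -6.06 ± 0.080, SE, adjusted p = 8.88e-18, rank 61). AT1G62510 stood at 4.06, 4.24 and 3.91 in callus and at 9.38, 9.61 and 9.57 in leaf, a ratio of 43.8 (log2 fold change -5.45 ± 0.11, SE, adjusted p = 6.84e-16, rank 109). All 3 genes lay above the third quartile in leaf, but between the first quartile (4.04) and the median (5.47) of gene means in callus, so the callus end of each fold lies at low signal.

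These falls came beside the loss of leaf cell markers. All 6 measured mesophyll markers fell (log2 fold change -8.77 to -6.84), as did both measured guard cell markers (-3.88 and -2.36), and their part in the falls of the hybrid proline-rich genes was not tested. In the opposite direction AT4G22470 stood at 5.54, 5.67 and 5.91 in callus and at 4.30, 4.01 and 3.92 in leaf, a rise of 3.11-fold (log2 fold change 1.64 ± 0.13, SE, adjusted p = 1.84e-08). The log2 fold changes of the 6 genes that were not called lay between -0.59 for AT4G22460 and 0.40 for AT4G12500.

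**Figure D2:**
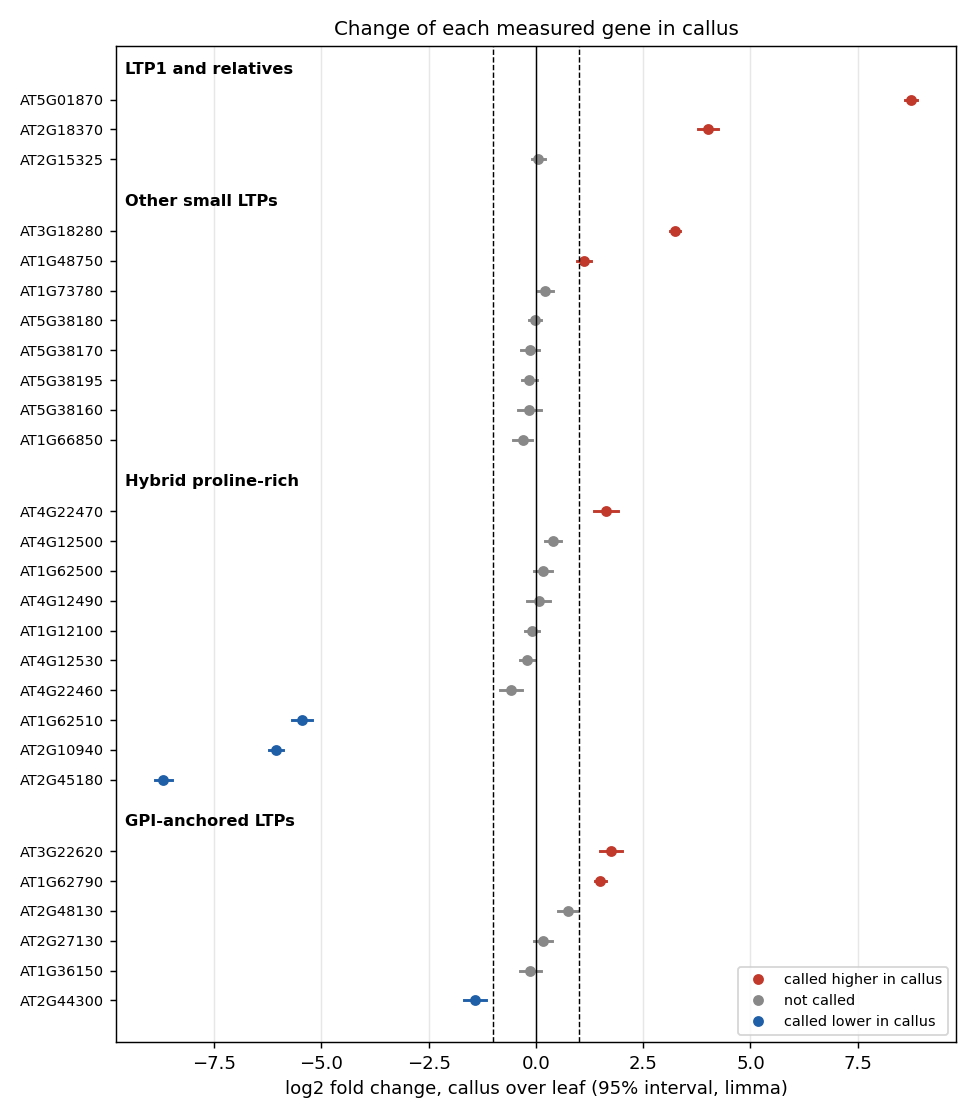
Log2 fold change of callus over leaf (horizontal axis) for the 27 measured genes, with 95% intervals from limma. Red marks the 7 genes called higher in callus, blue the 4 called lower and grey the 16 not called, and dashed lines mark 2-fold. The intervals of all grey genes lie between the dashed lines.

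Of the 6 GPI-anchored genes measured 2 rose, 1 fell and 3 were not called, and all log2 fold changes lay between -1.43 and 1.75. AT3G22620 averaged 6.23 ± 0.058 in callus and 4.48 ± 0.15 in leaf (SD, n = 3), a rise of 3.37-fold. AT1G62790 averaged 9.99 ± 0.024 in callus and 8.48 ± 0.054 in leaf, a rise of 2.84-fold in a gene that was bright in both tissues. AT2G44300 fell to 5.18 ± 0.072 in callus, against 6.61 ± 0.17 in leaf (log2 fold change -1.43, adjusted p = 2.30e-08). AT2G48130 was at 4.87 ± 0.16 in callus and 4.12 ± 0.020 in leaf, where its log2 fold change of 0.75 stayed under the threshold (adjusted p = 1.24e-05). AT2G27130 and AT1G36150 had log2 fold changes of 0.16 and -0.13 with arrays that overlapped. The call of AT1G62790 was lost on the TIP41 scale (0.92) and that of AT2G44300 on the poly-A scale (-0.67). AT2G48130 gained a call when the spiked hybridization controls (1.01) or poly-A controls (1.51) set the scale.

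**Figure D3:**
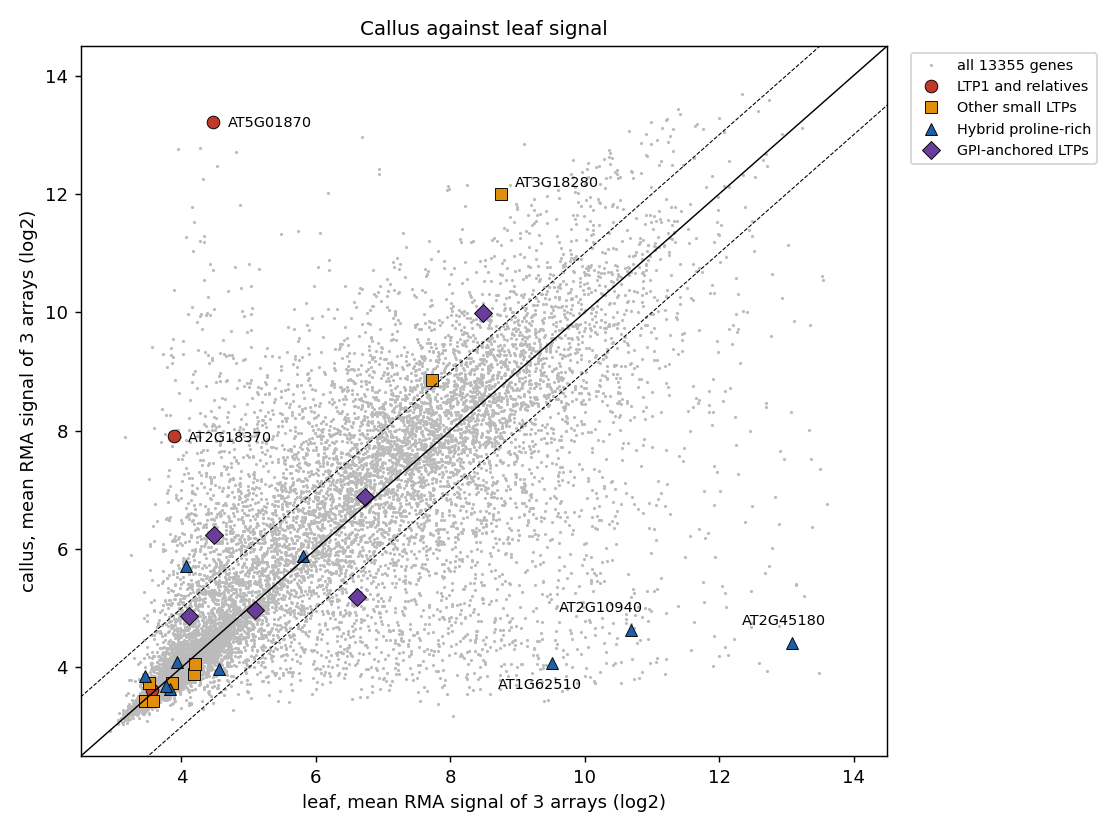
Mean RMA signal of 3 callus arrays (vertical axis, log2) against the mean of 3 leaf arrays (horizontal axis, log2) for all 13355 genes (grey dots) and the 27 family genes, marked by group. The solid line marks equal signal and the dashed lines 2-fold. Named are the 6 family genes with changes of more than 4-fold, of which 3 lie above the lines and 3 hybrid proline-rich genes lie below them.

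Several measured members lie beside each other in the TAIR10.1 RefSeq annotation, which was used for gene order alone. On chromosome 1 the hybrid proline-rich genes AT1G62500 and AT1G62510 are direct neighbours. AT1G62500 stood at 4.204, 4.039 and 4.039 in callus and at 4.092, 3.947 and 3.742 in leaf, with a 95% interval of -0.05 to 0.38 for its log2 fold change. The interval of AT1G62510 was -5.69 to -5.22. The tissues overlapped for AT1G62500 and were far apart for AT1G62510. The means of AT1G62500 (4.09 in callus, 3.93 in leaf) lay near the first quartiles of gene means (4.04 and 4.05). At such low signal a change of AT1G62500 may not show. On chromosome 4 AT4G22460 and AT4G22470 have 2 other genes between them. AT4G22460 stood at 3.89, 4.13 and 3.89 in callus and at 4.61, 4.75 and 4.31 in leaf, with an interval of -0.84 to -0.33, and AT4G22470 had an interval of 1.35 to 1.92. The call of AT4G22460 depended on the scaling, since on the TIP41 scale it was lower in callus (-1.17) while AT4G22470 remained higher (1.05). The sign of AT4G22460 depended on the scaling as well. With poly-A scaling it was positive (0.17, not called), as was AT4G22470 (2.40). When the hybridization spikes set the scale, AT4G22460 was at -0.33 (not called) and AT4G22470 at 1.90. These pairs were looked at with their values known, so the difference within a pair was not tested.

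In a run of hybrid proline-rich genes on chromosome 4 that also holds AZI1 and EARLI1, 3 genes were measured on their own and 0 were called. AT4G12490 averaged 5.88 ± 0.20 in callus and 5.81 ± 0.12 in leaf. AT4G12500 averaged 3.86 ± 0.17 in callus and 3.46 ± 0.049 in leaf, with arrays that did not overlap (adjusted p = 0.000590), and was called on the poly-A scale (log2 fold change 1.17). AT4G12530 averaged 3.63 ± 0.086 in callus and 3.84 ± 0.12 in leaf (adjusted p = 0.0455). Between AT4G12500 and AT4G12530 lie AT4G12510 and AT4G12520, which share a probe set and were not tested. That probe set stood at 4.17, 4.19 and 4.39 in callus and at 6.73, 6.61 and 6.72 in leaf, a difference of -2.44 with no overlap of arrays, which cannot be given to either locus. On chromosome 5 the small lipid-transfer genes AT5G38160, AT5G38170 and AT5G38180 follow each other directly, with AT5G38195 behind 2 further genes. All 4 stayed between 3.21 and 4.35 on every array.

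**Figure D4:**
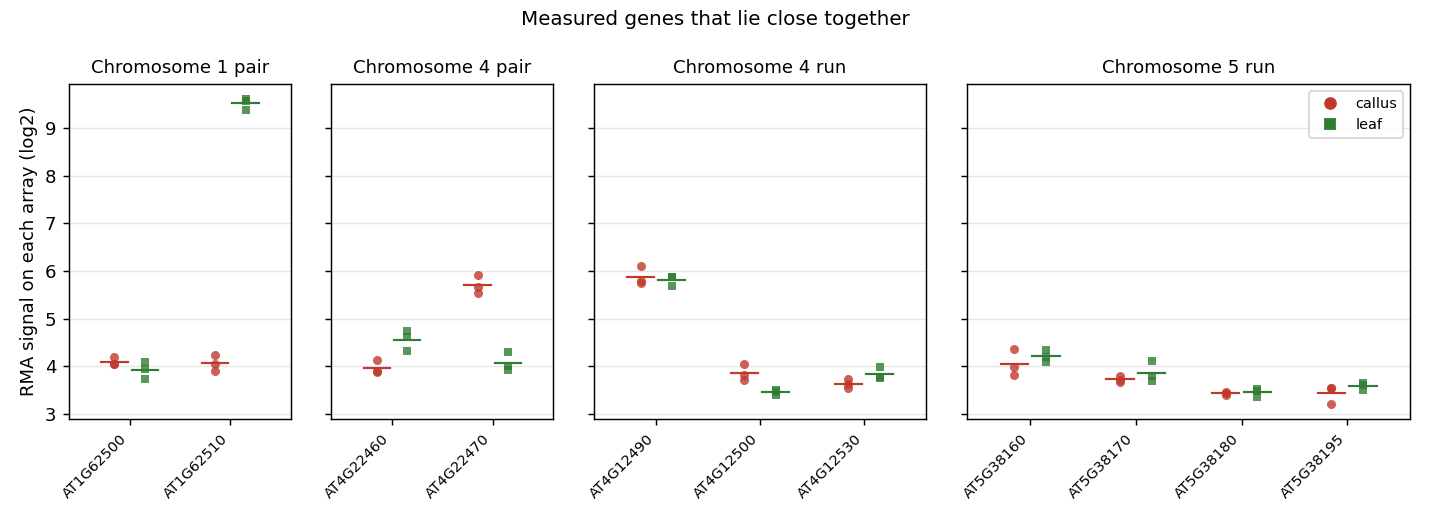
RMA signal (log2, vertical axis) of measured family genes that lie close together, on each of the 3 callus arrays (red circles, left of each pair) and 3 leaf arrays (green squares), with means as lines. AT1G62510 is near 4.1 in callus and 9.5 in leaf beside AT1G62500 near 4 in both, and AT4G22470 is higher in callus than in leaf beside AT4G22460.

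For the 16 genes not called, the 95% intervals of the log2 fold change lay between -0.84 and 0.98, and those of all 16 lay within 2-fold. In 6 of them, AT1G66850, AT1G73780, AT2G48130, AT4G12500, AT4G12530 and AT4G22460, the adjusted p was under 0.05 with a change under 2-fold. Low signal limits this reading, since 8 of the 16 had means below the first quartile in both tissues, with array values of 3.21 to 4.12. These were AT2G15325, AT1G73780, AT5G38170, AT5G38180, AT5G38195, AT4G12500, AT4G12530 and AT1G12100. At such signals these arrays may not be able to show a change. The intervals also hold for the deposited scale alone. On the poly-A scale AT2G48130 (1.51) and AT4G12500 (1.17) were called, and on the TIP41 scale AT4G22460 was (-1.17).

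Of the surface lipid genes set beside the family, few were measured. In the cutin and wax list 3 of 36 were measured and 0 were called, with the wax ester synthase gene WSD1 at 3.67 ± 0.14 in callus and 4.34 ± 0.15 in leaf (log2 fold change -0.67, limma adjusted p = 2.43e-05), SHN3, for a transcription factor of cuticle formation, at -0.08 and AT5G33370 at -0.15. In the suberin and endodermal barrier list 1 of 26 was measured. That gene was FACT, whose enzyme makes caffeate esters of fatty alcohols found in suberin-associated waxes, and it rose 2.58-fold with 5.71, 5.82 and 5.97 in callus and 4.35, 4.54 and 4.51 in leaf (adjusted p = 3.68e-08).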

How the data were processed

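RNA from 3 callus and 3 leaf arrays was analysed. The authors deposited log2 expression values, which the submitters' processing notes credit to RMA (background correction, quantile normalization, probe summary) and Partek, though neither their versions nor the chip description file was stated in the sources used here. A change in total RNA is hidden by quantile normalization. The table held 22810 probe sets, 64 of them controls. Of the other 22746, 13513 had 1 gene in the platform's gene table, 503 had several and 8730 were not listed. The probe set with the highest mean was kept per gene, giving 13355 genes, named through gene identifiers (or the locus, where an identifier had been replaced) and the TAIR10.1 RefSeq table, which gave none of the 27 members a name beyond its locus. No column belonged to other samples (0).

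The tissues were compared with limma (version 3.58.1, R 4.3.3), using lmFit and a trended eBayes, and p-values were adjusted over all genes by the Benjamini-Hochberg method. Errors are the SD over 3 arrays or the moderated SE. The number of arrays limits the precision. On simulated data with 13355 genes, 100 of 100 genes changed by 1.5 and 100 of 100 changed by 3 (log2) were recovered in callus against leaf, with 0 false calls. The noise was normal with each gene's own SD, and both changes lay above the 2-fold threshold. This outcome was therefore almost fixed in advance, and it does not test dim signals, scaling or changes near the threshold. Members, groups and lists were chosen with earlier results of these data known. Every measured member is named, and those with a called change of more than 4-fold are given in full. Values on each array are also given for some other members, chosen after their values were seen. Alternatives covered moderation, scaling, a filter on dim genes, probe set choice, thresholds, each array left out and the replicate number as a block.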

Additional observations from a re-analysis of the deposited data

Results flagged for a closer look

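A signal lay outside the measured genes in probe set 245535_at, which the platform's table assigns to 2 loci, 1 of them on the family list, and which therefore names no gene here. It averaged 6.11 ± 0.25 in callus and 5.75 ± 0.046 in leaf (SD, n = 3), and all 3 callus arrays (5.89, 6.07 and 6.38) lay above all 3 leaf arrays (5.80, 5.72 and 5.74). Such a lack of overlap was seen for 66.0% of all measured genes, and only shared probe sets higher in callus were flagged here. The difference of 0.36 was not tested.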

How the results depend on the processing

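The counts of 7 members higher and 4 lower were the same without the intensity trend and with quantile normalization applied again. The same counts came with the mean of all probe sets of a gene and without probe sets ending in _s_at or _x_at. They also came at the study's threshold of an unadjusted p. These last settings could not change the counts. Each member has a single probe set, none ending in _s_at or _x_at, and every uncalled member changed by less than 2-fold. Leaving out any 1 array gave 7 and 4 members in each case. Centring on TIP41, the hybridization controls and the poly-A controls moved the median of all genes by -0.59, 0.26 and 0.76. On these scales 5, 8 and 9 members were higher and 5, 4 and 3 lower, 9 of the 11 calls held on TIP41, 11 with the hybridization controls and 10 with the poly-A controls, and 6, 7 and 9 of the 16 uncalled members changed sign. Over all genes, 1257 were higher and 2794 lower on TIP41, and 4555 were higher and 1096 lower on the poly-A controls, so that the share of calls higher in callus was 31.0% and 80.6%, against 55.4% as deposited and 64.9% on the hybridization controls. With no fold threshold 10 members were higher and 7 lower, and 4597 genes higher and 3572 lower. At 4-fold 3 members were higher and 3 lower, and 839 genes higher and 956 lower. With genes below the median signal left out, 11 members were tested, with 5 higher and 4 lower, fewer because fewer genes were tested. Of the 6678 genes kept, 1750 were higher and 1482 lower, so that 48.4% were called, against 29.6% without the filter. The filter used the mean over all 6 arrays, so a gene bright in only 1 tissue could pass it through that tissue.

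Replicates that share a number did not deviate together (correlations of -0.11, 0.072 and -0.043 across genes). These values gave no sign that the numbers pair the arrays, but they cannot show how the arrays were run. With the replicate number as a block, 7 members were higher and 4 lower, as without it.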

Other observations

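A probe set shared by AT5G46890 and AT5G46900, neighbouring hybrid proline-rich loci of the list, cannot be given to either and was not tested. It lay near the first quartile of gene means in both tissues (4.04 in callus, 4.05 in leaf), with a mean of 4.13 in callus (SD 0.096, n = 3) and of 4.03 in leaf (SD 0.18).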
